A study of Mus musculus with 6 samples.

Results

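The 10 genes described here, Ifit1, Ifit2, Ifit3, Isg15, Uba7, Herc6, Usp18, Rsad2, Cmpk2 and Isg20, are genes of the type I interferon response. They are referred to here as effectors. Their products act on viral RNA or translation factors, on nucleotides, or in attaching Isg15 to proteins and removing it. The genes are 10 of the 35527 gene names with a probe on the array, and 14 of the 55681 non-control probes carry one of these names. The genes were chosen by their measured values in this same contrast, arrays labelled GapmeR Ntep against arrays labelled GapmeR control. Their differences are therefore given as a description and not as a test of the group.

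The samples were 3T3 cells, a mouse fibroblast line. They were treated for 48 h with 50 nM of a GapmeR, a short synthetic antisense strand whose pairing lets RNase H cut the RNA. The paper states that GapmeRs were delivered by transient transfection. After initial tests it used a single sequence against Ntep, beside a single control sequence. The GapmeR was either directed against the long non-coding RNA Ntep (A630089N07Rik) or was a control GapmeR, and 3 independent experiments gave 1 culture of each kind. Total RNA of the 6 cultures was hybridised in 1 colour to Agilent mouse arrays, so each label had 3 arrays. Both groups received an oligonucleotide at the same dose, and no array of cells without one was analysed here. Which of the labels differed from cells without an oligonucleotide therefore cannot be told. In experiments 1, 2 and 3 the Ntep probe read 472, 91.5 and 226 under the GapmeR Ntep label, with 271, 272 and 361 in the matching controls. On this probe experiment 1 thus went against its label (log2 difference over all arrays -0.48, SE 0.58, limma adjusted p = 0.632). Every direction below is that of the label. By qPCR, the paper reports efficient silencing of Ntep by this GapmeR in the same cell line. The paper does not state whether the cultures on the arrays were among those measured by qPCR. On each array 43.7% to 53.3% of probes were well above background. Of 12 fibroblast markers 9 were well above background on all arrays, among them the collagen genes Col1a1, Col1a2 and Col3a1, whereas Fap was at background on every array and Lum was above it on 1 control array.

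Type I interferons bind a receptor that activates the kinases Jak1 and Tyk2, and transcription factors that include Stat2 and Irf9 then bind interferon-stimulated response elements in the promoters of target genes. Many targets can also be switched on directly by Irf3 after foreign nucleic acid is sensed. The IFIT proteins bind viral RNA or translation factors, Isg15 is a ubiquitin-like protein that is attached to other proteins by an enzyme cascade, viperin (Rsad2) makes a chain-terminating nucleotide from the substrate supplied by its neighbour Cmpk2, and Isg20 is an exonuclease that degrades RNA. In fibroblasts these genes are known as some of the most strongly induced after interferon treatment or virus infection.

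The bases before the transcription start are shown to compare genes of the group that do and do not hold the core letters of the response element, GAAANNGAAA. The 250 bases before each start were taken from RefSeq on GRCm38.p6 and searched on both strands, with overlapping matches counted. Of the 10 genes 9 had a window, with 12 windows in all, and Usp18 had none in the table. Matches stand in capitals, and the form TTTCNNTTTC is the same letters read on the other strand. Isg15 (chr4:156200819-156201068, minus strand) held 3 overlapping matches, beginning 78, 72 and 66 bases before the start, and Rsad2 (chr12:26456453-26456702, minus strand) held 1 at 120 bases. For Ifit1 (chr19:34640785-34640813, plus strand), with matches at 104 and 85 bases, and Ifit3 (chr19:34583363-34583392 and chr19:34583397-34583426, plus strand), with matches at 156 and 122 bases, only the stretches around the matches are printed, because these windows overlap spans annotated as transcribed. Uba7 (chr9:107975317-107975566, plus strand) and Cmpk2 (chr12:26468965-26469116, plus strand, up to 99 bases before the start) held no match and are shown because they had the largest differences of the group.
Isg15: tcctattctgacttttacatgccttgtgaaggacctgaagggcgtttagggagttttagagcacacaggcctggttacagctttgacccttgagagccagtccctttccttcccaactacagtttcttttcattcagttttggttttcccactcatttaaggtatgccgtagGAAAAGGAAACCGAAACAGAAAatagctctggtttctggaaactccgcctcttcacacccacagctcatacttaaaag
Rsad2: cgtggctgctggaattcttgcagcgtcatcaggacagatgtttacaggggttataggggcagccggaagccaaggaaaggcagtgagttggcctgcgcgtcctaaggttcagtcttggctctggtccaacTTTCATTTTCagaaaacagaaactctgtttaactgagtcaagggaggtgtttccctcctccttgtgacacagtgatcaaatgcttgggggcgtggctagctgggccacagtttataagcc
Ifit1: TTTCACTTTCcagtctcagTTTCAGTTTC
Ifit3, farther match: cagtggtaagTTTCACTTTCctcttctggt
Ifit3, nearer match: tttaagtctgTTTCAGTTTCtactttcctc
Uba7: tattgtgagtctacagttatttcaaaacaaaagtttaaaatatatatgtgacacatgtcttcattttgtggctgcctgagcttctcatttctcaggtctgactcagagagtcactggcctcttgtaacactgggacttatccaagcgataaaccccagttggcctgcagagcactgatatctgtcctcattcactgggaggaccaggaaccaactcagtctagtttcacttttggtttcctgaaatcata
Cmpk2: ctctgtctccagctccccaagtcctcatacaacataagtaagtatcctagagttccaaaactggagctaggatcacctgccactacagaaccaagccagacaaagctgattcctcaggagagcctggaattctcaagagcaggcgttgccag

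The letters were thus present before 4 of the 9 genes with a window (Ifit1, Ifit3, Isg15 and Rsad2) and absent from those of Ifit2, Isg20, Uba7, Herc6 and Cmpk2. Of all 32851 windows of this length in the table, 2.98% held them. Counted by gene, 3.23% of the 10292 tested genes with a window held them. Among tested genes outside the group that had a window, 44 of 328 with the letters (13.4%) and 557 of 9955 without them (5.60%) were lower by the limits used below, and the median log2 differences were -0.14 and 0.00. A match is a description of the letters and not of a factor bound there, and the absence of one says only that these letters are not in the window searched. Ifit1 lies on chromosome 19 with its start 146 bases from that of its paralog Ifit1bl2, which runs the other way, so that both windows hold the same 2 matches. The starts of Rsad2 and Cmpk2 are 12763 bases apart on chromosome 12, and these genes also run in opposite directions.

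In each of the 3 experiments all 10 genes had less signal under the GapmeR Ntep label. The mean log2 differences over the experiments ran from -3.39 for Uba7 to -0.75 for Isg20. Within single experiments they ran from -4.60 (Uba7, experiment 1) to -0.52 (Isg20, experiment 2). In every gene all GapmeR Ntep arrays lay below all GapmeR control arrays, a pattern that 15.5% of the 22034 tested genes showed. A difference of 2-fold or more together with an unadjusted p under 0.01 was reached by 9 of the 10, where 5% of tested genes were called lower. After Benjamini-Hochberg adjustment over all tested probes 5 of the 10 were below 0.05 (Ifit3, Usp18, Uba7, Rsad2 and Cmpk2), where 2.91% of genes were called. With the experiments as blocks in the fit, 7 were below 0.05, with Ifit1 and Ifit2 added. The count lower after adjustment over the whole array was 1857 with the blocks and 921 without them. These whole-array counts are not the one behind the 2.91%, which was 641 of 22034 genes. No call after adjustment was left when any control array or GapmeR Ntep replicate 3 was omitted, although all 10 were then still lower at an unadjusted limma p under 0.05. Over the whole array the count lower after adjustment was 104, 0 and 5 without GapmeR control replicates 1, 2 and 3. It was 0 without GapmeR Ntep replicate 3, so in these fits few calls were left for any gene. Without GapmeR control replicate 2 the count at unadjusted p under 0.01 was 4. The share of all genes at that limit is given for the main fit only, so this 4 has no matching share. The median over the 10 genes was -2.14, beside 0.06 over all genes tested. All 14 probes were well above background on all arrays and none was saturated.

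**Figure D1:**
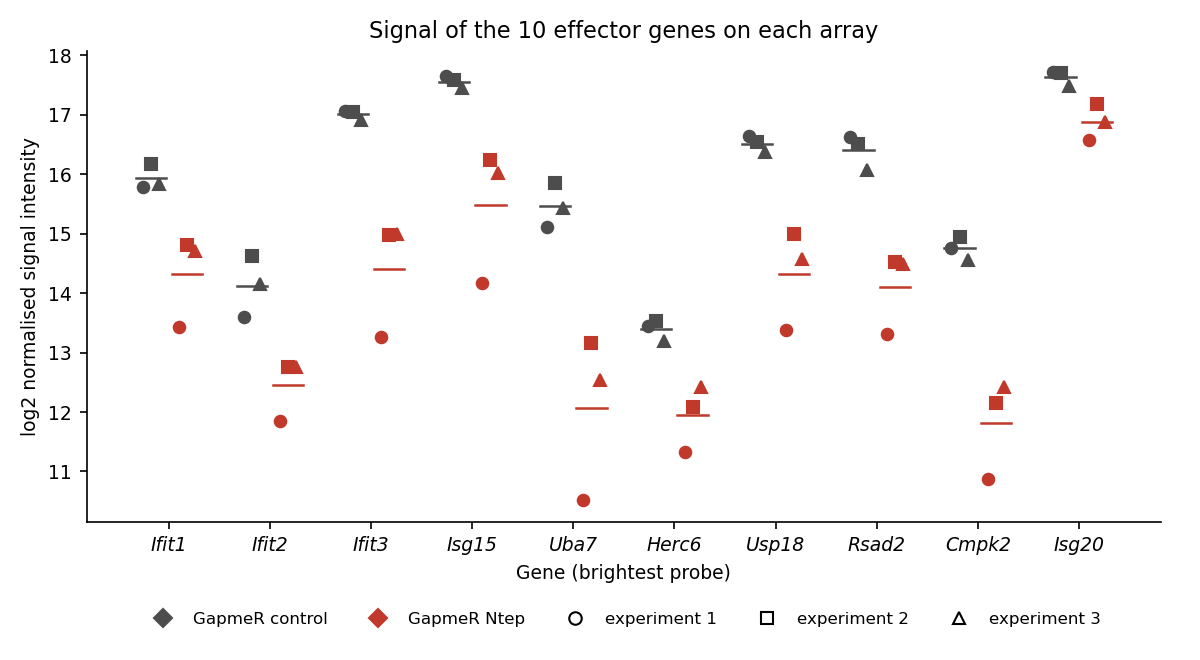
Normalised signal intensity (log2 scale) of the brightest probe of each gene on the 6 arrays. Grey symbols are arrays labelled GapmeR control and red symbols arrays labelled GapmeR Ntep, the symbol shape gives the experiment, and horizontal lines are means of 3 arrays. The labels do not overlap for any of the 10 genes, and the GapmeR Ntep array of experiment 1 (circle) is the lowest of its label for all 10.

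The IFIT genes encode proteins built of tetratricopeptide repeats. Ifit3 (probe at chr19:34663105-34663164, mm9), which in humans stabilises IFIT1, had normalised signals of 137797, 134814 and 123676 on the control arrays of experiments 1, 2 and 3 and of 9787, 32393 and 32552 on the GapmeR Ntep arrays. The controls were within 0.16 of each other on the log2 scale, and the GapmeR Ntep array of experiment 1 stood apart below the other two. The mean fell from 132096 ± 7443 to 24911 ± 13098 (SD, n = 3), a log2 difference of -2.60 (SE 0.49, adjusted p = 0.0426).

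Ifit1 (chr19:34723796-34723855), which binds the cap of RNA that lacks ribose methylation, had signals of 56503, 74189 and 58219 on the control arrays and 11098, 28632 and 26744 on the GapmeR Ntep arrays. Its log2 difference was -1.61 (SE 0.40), with an adjusted p of 0.0720 that became 0.0446 with the experiments as blocks. Ifit2 (chr19:34650244-34650303), a partner of the other IFIT proteins that is also linked to apoptosis, had signals of 12354, 25169 and 18213 on the control arrays and 3707, 6886 and 6920 on the GapmeR Ntep arrays. For Ifit2 the control of experiment 1 was the lowest control, so that the controls ranged over 1.03 on the log2 scale, more than the 0.90 of the GapmeR Ntep arrays. Its difference was -1.67 (SE 0.37), with an adjusted p of 0.0587, or 0.0310 with the experiments as blocks.

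The 3 IFIT paralogs that share the locus and have a probe were lower as well, each past both limits. Ifit3b, a near-identical copy of Ifit3, fell from a mean of 89245 to 10481 (-3.25, SE 0.47, adjusted p = 0.0287). Ifit1bl1 had -4.41 (SE 0.84, adjusted p = 0.0430), with 1 of its 3 GapmeR Ntep arrays not well above background. Ifit1bl2 had -1.12 (SE 0.20, adjusted p = 0.0394). Probes of such close copies may bind transcripts of the neighbouring gene, so the IFIT genes of this locus are not fully independent readings.

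Isg15 and its enzymes form the second set. Isg15 (chr4:155573649-155573708), the ubiquitin-like modifier itself, had signals of 205361, 196775 and 179056 on the control arrays and 18502, 77395 and 66739 on the GapmeR Ntep arrays. The controls differed by 0.20 on the log2 scale at most, whereas the GapmeR Ntep arrays ranged over 2.06 because experiment 1 was far below the others. The difference was -2.08 (SE 0.55, adjusted p = 0.0837), and with the experiments as blocks its unadjusted p was 0.0140, no longer under 0.01. Its dimmer probe (chr4:155573533-155573552) gave -2.67 (SE 0.59, adjusted p = 0.0583, or 0.0357 with the experiments as blocks).

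Uba7 (chr9:107886328-107886387), the enzyme that activates Isg15 for conjugation, showed the largest difference of the 10. It had signals of 35541, 58965 and 44487 on the control arrays and 1462, 9200 and 5982 on the GapmeR Ntep arrays. The difference was -3.39 (SE 0.69, adjusted p = 0.0489), a 10.5-fold lower signaland rank 54 from the lowest among the 22034 tested genes. This adjusted p was close to the limit and lay above it under scaling to the 75th percentile and under a lower floor on dim values.

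Herc6 (chr6:57568608-57568667), which is the main ligase for Isg15 in mice, had signals of 11152, 11907 and 9421 on the control arrays and 2560, 4361 and 5480 on the GapmeR Ntep arrays. Its difference was -1.45 (SE 0.31, adjusted p = 0.0541), and the dimmer probe (chr6:57612406-57612719) gave -1.64 (SE 0.30, adjusted p = 0.0392). Usp18 (chr6:121220874-121220933) removes Isg15 from its targets and also blocks signalling at the interferon receptor. It had signals of 102232, 95049 and 84704 on the control arrays and 10712, 32577 and 24415 on the GapmeR Ntep arrays, a difference of -2.20 (SE 0.42, adjusted p = 0.0436). The activating enzyme, the ligase and the protease of the cycle were thus each lower by more than 2-fold, with the labels apart.

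Of 3 other genes of Isg15 conjugation, 1 was called lower at the unadjusted limit, Ube2l6, the conjugating enzyme (-1.48, SE 0.37, adjusted p = 0.0733, or 0.0332 with the experiments as blocks). Trim25, a ligase with Isg15 and ubiquitin activity, had -0.58 (adjusted p = 0.206), and Arih1, a ligase of the Ariadne family, had 0.45 (adjusted p = 0.544). That call was lost without GapmeR Ntep replicate 2, GapmeR control replicate 2 or GapmeR control replicate 3.

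Viperin and its neighbour form the third set. Rsad2 (chr12:27127859-27127918), a radical SAM enzyme, had signals of 101055, 93450 and 69258 on the control arrays and 10142, 23538 and 23005 on the GapmeR Ntep arrays. The difference was -2.30 (SE 0.38, adjusted p = 0.0343). Cmpk2 (chr12:27164119-27164178), a mitochondrial nucleotide kinase, had signals of 27644, 31442 and 24236 on the control arrays and 1866, 4543 and 5497 on the GapmeR Ntep arrays, a difference of -2.94 (SE 0.42, adjusted p = 0.0287). The dimmer probe of Cmpk2 (chr12:27162935-27162994) gave nearly the same value, -2.87 (SE 0.46, adjusted p = 0.0330). Other nucleoside and nucleotide kinases gave no call. All 9 were tested, 4 were lower and 5 higher, the median was 0.00, and the ones farthest from it were Tk1 (-0.69), Nme1 (0.61), Dguok (-0.59) and Cmpk1 (0.56), with adjusted p from 0.0644 to 0.269. At an unadjusted limma p under 0.05, without the limit on fold change, Tk1, Nme1 and Cmpk1 would count.

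Isg20 had the smallest difference of the group. Its brightest probe (chr7:86065136-86065195) had signals of 215730, 213056 and 183132 on the control arrays and 97615, 148583 and 121198 on the GapmeR Ntep arrays. The labels did not overlap, but the difference of -0.75 (SE 0.21, adjusted p = 0.0942) was under 2-fold, and 15.0% of tested genes were as low. The dimmer Isg20 probe (chr7:86064960-86065019) gave -1.25 (SE 0.22, adjusted p = 0.0361), so that the call for this gene depends on the probe.

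**Figure D2:**
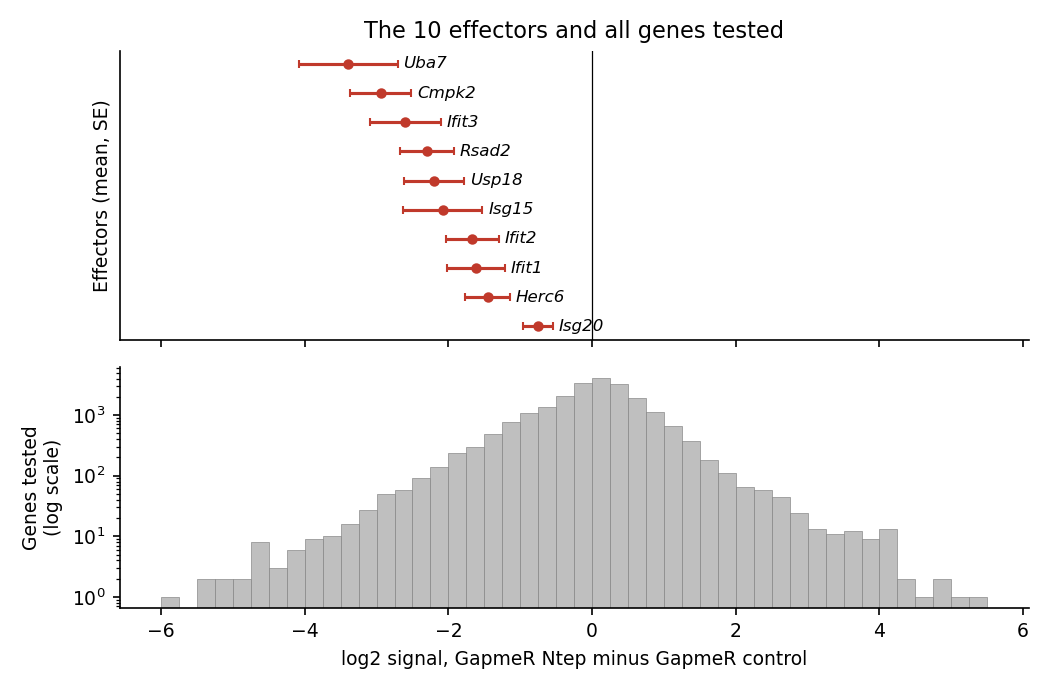
Upper panel, log2 difference of the 10 genes (point, mean of 3 arrays per label; bar, SE of the limma fit). Lower panel, the same difference for all 22034 tested genes as counts in bins, on a log scale. The 10 genes span -3.39 to -0.75, whereas the median of all genes is 0.06.

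Within experiments the falls were unequal. The median over the 10 genes was -3.29 in experiment 1, -1.71 in experiment 2 and -1.51 in experiment 3, with an SD of 0.974 among these medians, and over all tested genes it was 0.03, 0.05 and 0.03. Experiment 1 gave the largest fall for 9 of the 10 genes. The exception was Ifit2, with -1.74, -1.87 and -1.40 in experiments 1, 2 and 3. For Uba7 the values were -4.60, -2.68 and -2.89, and for Isg15 they were -3.47, -1.35 and -1.42. With GapmeR Ntep replicate 1 left out, the median over the 10 genes was -1.58. Experiment 1 is also the one in which the Ntep probe was higher under GapmeR Ntep than in its control (log2 difference 0.80), against -1.57 and -0.68 in the others, and the part of this in the result was not tested.

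The order of the falls among the 10 genes was much alike between experiments, with a Spearman correlation of 0.915 between experiments 1 and 3, 0.855 between 2 and 3 and 0.721 between 1 and 2. These are across genes of 1 pathway, which are not independent replicates. The spread lay mainly with the GapmeR Ntep arrays. Their log2 SD exceeded that of the controls in all 10 genes, with 0.30 to 1.39 against 0.08 to 0.51, though for Ifit2 the values were nearly equal (0.518 against 0.514). Over the 6 arrays each gene followed the mean of the other 9 with a Pearson correlation of 0.951 (Ifit2) to 0.997 (Ifit3), where the arrays share label and experiment.

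**Figure D3:**
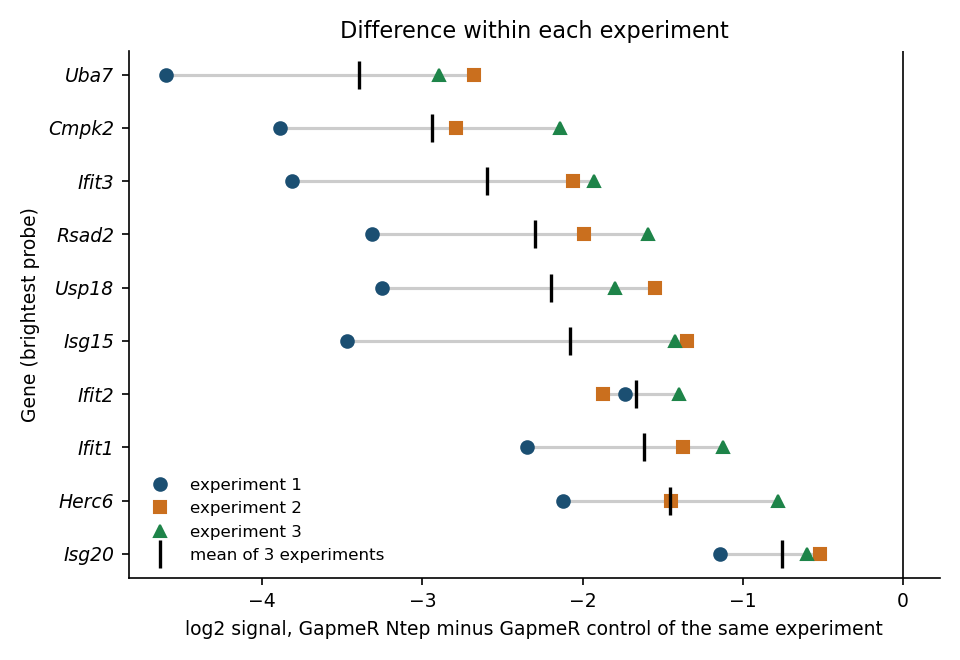
Log2 difference between the GapmeR Ntep and the GapmeR control array of the same experiment for each of the 10 genes, ordered by the mean (vertical tick). Every value is below 0, and experiment 1 is the farthest left for every gene except Ifit2.

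Genes outside the group with the profile most like the mean of the 10 across the 6 arrays were LOC631406, Hmgcll1, Slfn8, the transcript ENSMUST00000111637 and Adar, each with a Pearson correlation of 0.999. These names are those of the array design and can be old. Their log2 differences were -3.18, -3.13, -3.20, -2.63 and -1.61. Slfn8 belongs to the Schlafen family and Adar edits double-stranded RNA.

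Genes of interferon production, signalling and sensing were read as lists. Many of them can be interferon targets themselves, and their RNA does not measure the activity of a step. Of 21 interferon ligand genes listed, 16 had a probe and 13 were tested. The median of these was -1.58, with 10 lower and 3 higher, and 7 were called lower at the unadjusted limit (6 after adjustment) and 0 higher. With normexp background correction, under which all 16 genes with a probe entered the fit, the median was -0.35. The count of 0 higher held for limma, at an unadjusted p under 0.05 as well. Ifnb1, the interferon that fibroblasts make, had a mean of 4451 on the control arrays and 799.9 on the GapmeR Ntep arrays (-2.49, SE 0.40, adjusted p = 0.0335) and was well above background on all 6. Interferon alpha genes are close copies, so that their probes may share transcripts. The largest difference among them was that of Ifna4 (-4.14, SE 0.61, adjusted p = 0.0288), which was above background on all control arrays and 1 GapmeR Ntep array. Ifna13 had -2.35 and Ifna12 -2.17, with 2 and 1 of the 3 GapmeR Ntep arrays above background, so these differences and that of Ifna4 rest in part on signal not well above background. Ifna5 had -2.05 and Ifnab went from a mean of 899.8 in controls to 212, with all 3 arrays of each label above background for both genes. These 5 genes were called after adjustment, whereas Ifna2 (-1.58, adjusted p = 0.0625, or 0.0320 with the experiments as blocks), Ifna1 (-0.68) and Ifna14 (-0.55) were not. Ifng was at background on all arrays.

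Of 15 receptor and JAK-STAT genes, 12 were lower, with a median of -0.28, and 3 were called lower, 2 of them after adjustment. Ifngr1, a subunit of the interferon gamma receptor, had -1.34 (SE 0.24, adjusted p = 0.0376), and Irf9 had -1.03 (SE 0.16, adjusted p = 0.0300). The type I receptor genes Ifnar1 (-0.09, adjusted p = 0.886) and Ifnar2 (-0.08, adjusted p = 0.851) and the kinase Jak1 (-0.09, adjusted p = 0.770) were close to unchanged. Stat2 had -1.46 (adjusted p = 0.0560, or 0.0399 with the experiments as blocks), Tyk2 -1.39 (adjusted p = 0.258, or 0.0337 with the blocks) and the phosphatase Ptpn6 -1.07 (adjusted p = 0.226, or 0.0472 with the blocks). The count of 3 was 1 without GapmeR control replicate 1 and 5 with the experiments as blocks. Of 15 sensors and interferon regulatory factors, 11 were lower with a median of -1.22, and 5 were called lower, 4 after adjustment. Zbp1, a sensor of Z-form nucleic acid, had -3.44 (SE 0.37, adjusted p = 0.0220), and Tlr3, the endosomal sensor of double-stranded RNA, had -4.00 (SE 0.48, adjusted p = 0.0243) with 1 GapmeR Ntep array above background. Dhx58 had -2.86 (adjusted p = 0.0511, or 0.0310 with the experiments as blocks) and Irf7 -2.30 (adjusted p = 0.146, or 0.0443 with the blocks). The 4 sensor genes that were higher were Ticam1 (0.56), Mavs (0.50), Cgas (0.27) and Tbk1 (0.07), and 0 were called higher. Without GapmeR control replicate 2 the count of 5 called lower was 3.

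All 25 other antiviral effectors were lower, with a median of -1.63, and 12 were called, 6 of them after adjustment. With the experiments as blocks 14 were called after adjustment, while the count lower over the whole array went from 921 to 1857. Mx1, a GTPase that traps viral nucleocapsids, had -3.83 (SE 0.82, adjusted p = 0.0542, or 0.0397 with the blocks), Ddx60 -3.23 (SE 0.59, adjusted p = 0.0394) and Parp12 -2.98 (SE 0.32, adjusted p = 0.0220). Oas1g was not well above background on any GapmeR Ntep array, which gives a signal at least 5.25-fold lower than in controls (adjusted p = 0.0182). The count of 12 was 7 without GapmeR control replicate 1 and 6 without GapmeR control replicate 2 or 3. The 10 effectors and these lists share the same arrays, so the similar direction is not independent evidence.

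Markers of cell types were read alongside. Fibroblast markers had a median of -0.59, with 9 of 10 tested genes lower and none called by limma at the unadjusted limit (2 at an unadjusted p under 0.05), and their summed signal ranged from 555833 to 737685 on the GapmeR Ntep arrays and from 808745 to 892159 on the controls. The farthest were Dcn (-1.84), Pdgfra (-0.95), Col3a1 (-0.81) and Pdgfrb (-0.76), and with the experiments as blocks Dcn was called lower. Dcn was well above background on all 3 control arrays but on only 1 GapmeR Ntep array. Of 12 macrophage markers, 6 were not above background on any array (Ptprc, Adgre1, Fcgr1, Tyrobp, Cx3cr1 and Mrc1). Well above it on all arrays were 5, Csf1r, Itgam, Cd68, Cd14 and Aif1. Itgam was the brightest, with a mean of 12753 in controls and 32035 under GapmeR Ntep. The 6 tested markers had a median of 1.16, and the whole list of 12 had 0.048 with normexp background correction. Of the 6, 2 were called higher, where 2.89% of tested genes were called higher without blocks, and 4 higher and 1 lower with the experiments as blocks. Without GapmeR Ntep replicate 1, or without replicate 2 or 3 of the controls, 1 was called higher at the unadjusted limit. After adjustment 1 was called higher, where 1.63% were without blocks, and 4 higher and 1 lower with the blocks. Among them Csf1r had 3.19 (SE 1.12, adjusted p = 0.151), Itgam 1.26, Cd68 1.21 (SE 0.17, adjusted p = 0.0287), Cd14 1.11 (SE 0.26, adjusted p = 0.0627) and Aif1 -1.28. Their summed signal was 43072 to 75472 under GapmeR Ntep and 21165 to 27815 in controls, and the part of this in the result was not tested. Of 10 lymphoid and plasmacytoid markers 4 were tested, with a median of 0.27 (0.074 over all 10 with normexp) and none called (0 at an unadjusted limma p under 0.05), and the farthest were Cd4 (0.56), Siglech (0.28), Cd3e (0.26) and Ncr1 (-0.15). Cd3e, Cd4 and Siglech were well above background on all arrays, Siglech with means of 31276 in controls and 38989 under GapmeR Ntep. RNA was measured in bulk, so fewer cells that express the effectors and less of their RNA per cell cannot be told apart.

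**Figure D4:**
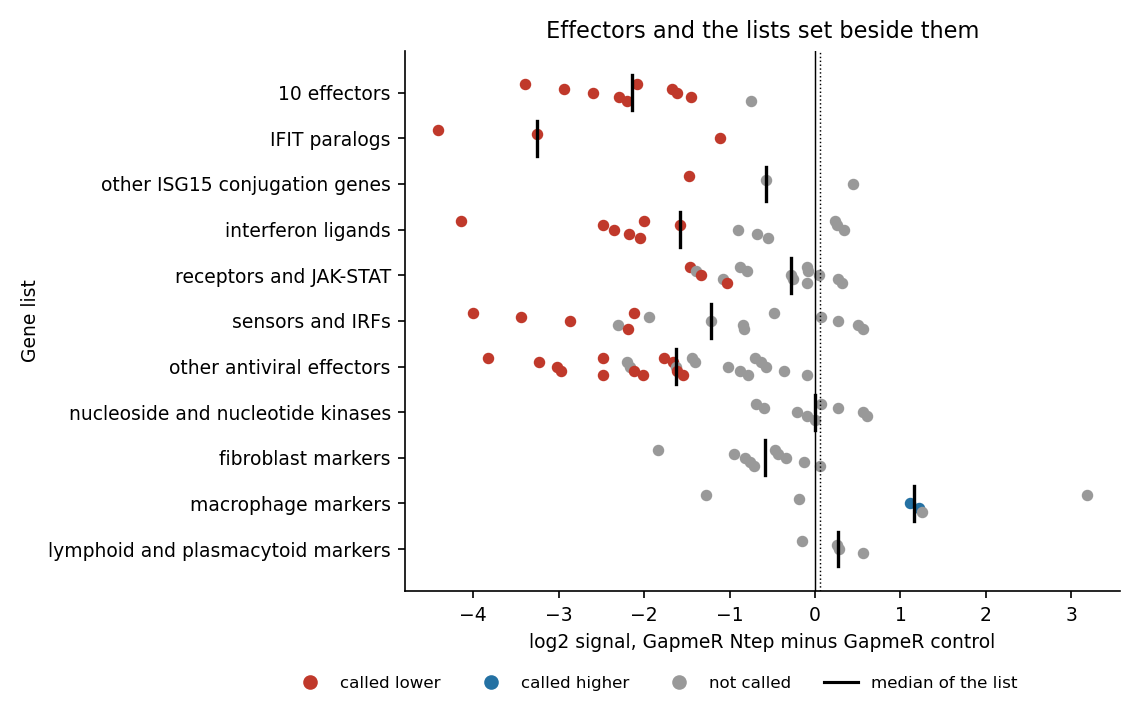
Log2 difference of each tested gene, by list. Red points were called lower and blue points higher at 2-fold or more with an unadjusted p under 0.01, grey points were not called, black ticks are medians and the dotted line is the median of all tested genes (0.06). The medians of the 10 effectors (-2.14), the IFIT paralogs (-3.25), the interferon ligands (-1.58) and the other antiviral effectors (-1.63) lie left of those of the nucleotide kinases (0.00) and the fibroblast markers (-0.59). Those of the other Isg15 conjugation genes (-0.58) and of receptors and JAK-STAT genes (-0.28) do not lie left of the fibroblast markers. With normexp background correction the ligands had -0.35 and the fibroblast markers -0.43, the reverse order.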

How the data were processed

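Each of 6 arrays was deposited as a scanner file of background-subtracted intensity values, which the authors made with Agilent Feature Extraction 10.7.3.1, on a linear scale and not normalised between arrays. The authors also deposited a table of quantile normalised intensity values, with 20 as the lowest value. Of the values over 50, 99.9% were within 0.05 (log2) of those computed here, and the probes of the 10 genes were within 0.0085.

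Spots of the same probe were averaged (55681 probes), arrays were quantile normalised, a floor of 20 was applied and values were taken to log2. Labels were compared unpaired, after the study's methods, by limma (version 3.58.1, run in R 4.3.3 with the package data.table, version 1.17.8). A probe entered the fit where its mean in the brighter label reached 50 (30990 probes), with two-sided p-values and Benjamini-Hochberg adjustment over them. A gene was read by its brightest probe. Calls needed a fold change of at least 2 with an unadjusted p under 0.01 or an adjusted p under 0.05. For 3 arrays against 3 the smallest permutation p is 0.1, and the number of arrays limits the precision.

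The study's supplementary list pairs the arrays by culture day. Deviations from the label means correlated at 0.462, 0.290 and 0.252 within experiments and at -0.319 to 0.128 across them, so a fit with experiments as blocks was run beside the unpaired one. Supplementary fold changes and p-values by the study were not used. Probe positions are mm9 as the files give them, and the annotation of those positions was not used here. Promoters are RefSeq windows on GRCm38.p6. Of the receptor list, 1 gene is not reported here. The genes and lists were chosen with earlier results of these data known. Named are all 10 genes, up to 4 genes per list with the largest absolute difference, the interferon ligands above background, and the 5 genes most like the group. Irf9, Ifnar1, Ifnar2, Jak1, the sensor genes that were higher and further macrophage markers are named in addition. Scaling, background correction, floor, filter, outlier spots, test, array weights, probe choice and left-out arrays were varied.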

Additional observations from a re-analysis of the deposited data

How the results depend on the processing

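Every one of the 10 genes stayed lower under all 16 alternatives, and the median over them ranged from -2.48 to -1.58. Scaling to the 75th percentile moved the median of all tested probes from 0.06 to 0.22 and that of the 10 genes to -1.97. Of the 10 genes, 9 were called at unadjusted p under 0.01 and 5 after adjustment; the methods' t-test called 2 and 0, the fit with all probes tested 0 after adjustment, and array weights 9. All 10 had an unadjusted p under 0.05 in each of these. Over the whole array the count lower after adjustment was 921 in the main fit and 98 with the t-test. It was 183 with all probes tested and 2744 with array weights. The number of probes tested was 30990 in the main fit and 55681 with all probes. Leaving out arrays gave 4 to 9 at the unadjusted limit, the 4 without GapmeR control replicate 2, and 0 to 6 after adjustment, the 0 without GapmeR Ntep replicate 3 or any control replicate. Over the whole array the count lower after adjustment then ranged from 0 to 904. Fitted with the experiments as replicate block, 8 and 7 were called. The share of all genes called lower at the unadjusted limit is given for the main fit only (5%). Counts at that limit in the other fits therefore have no matching share, and nothing is read from them. With the block the count lower after adjustment over the whole array was 1857, against 921 without it. With the block, 5 receptor and JAK-STAT genes and 1 fibroblast marker were lower, and 4 macrophage markers were higher and 1 lower; no other count of a list at the unadjusted limit moved by over 1.5 times. After adjustment the block raised the calls lower from 6 to 14 for other antiviral effectors, from 2 to 5 for receptors and JAK-STAT and from 0 to 1 for Isg15 conjugation genes, fibroblast markers and macrophage markers, and the calls higher from 1 to 4 for macrophage markers. Normexp (offset 50, all probes pass the cutoff) moved the medians of interferon ligands to -0.35, macrophage markers to 0.048 and lymphoid markers to 0.074. Scaling moved fibroblast markers to -0.36 and nucleotide kinases to 0.23. With an array left out, medians ranged from -2.11 to -1.23 for ligands, -0.79 to -0.42 for fibroblast, 0.96 to 1.29 for macrophage and 0.15 to 0.47 for lymphoid markers. Calls lower then ranged from 0 to 1 for Isg15 conjugation genes, 6 to 13 for other antiviral effectors, 1 to 3 for receptors and JAK-STAT and 3 to 6 for sensors, and calls higher from 1 to 3 for macrophage markers, the 1 when GapmeR Ntep replicate 1, or replicate 2 or 3 of the controls, was omitted. The cause of these changes was not tested.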
